A study of Mus musculus with 32 samples.

Results

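Actin and the proteins that bind it were examined in the frontal cortex (FCtx) of ethanol-treated mice and controls. The members were chosen by gene symbol, as every probe of the deposited array table annotated to Actb, Actg1, Cfl1, Cfl2, Pfn1, Pfn2, Tmsb4x, Tmsb10, Capzb or Actr3. Of these 10 genes, 9 had a probe in the table, and Actg1 had none. They held 21 of the 25697 probes, of which 5 were Actb probes. Detection on at least 24 of the 32 arrays was required for testing, which kept 20 of the 21 and 10187 probes in all. The probe left out was that of Cfl1, which was detected on 0 of 32 arrays.

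Every mouse gave 1 Illumina MouseRef-8 v2.0 array, a glass chip with 8 arrays on which each probe of 50 bases is read by many beads. There were 20 ethanol-treated mice and 12 controls, all female F1 hybrids of C57BL/6J and FVB/NJ. The ethanol-treated mice had a choice of water or 20% ethanol from separate bottles for a few hours of the dark phase on 20 days, and controls were untreated. Since the intake was voluntary and limited in time, the group stands for drinking and not for a fixed dose. The labels name 1 direction of the strain cross and the Methods both, and the direction of each mouse was not given in the sources used here. The mice were in early adulthood during the drinking, and no age in weeks was given there. RNA came from a dorsal slice of the most rostral cortex, cut without the olfactory bulbs. Chips 1 and 2 held 8 ethanol-treated mice each and chip 4 held 8 controls. On every chip the odd positions held the lower mouse numbers and the even positions the higher. A difference between odd and even positions therefore cannot be told apart from one between lower and higher mouse numbers. Chip 3 held both groups, with ethanol-treated mice A46, A47, A49 and A50 at odd positions (A, C, E, G) and controls C52, C54, C55 and C56 at even ones (B, D, F, H). Treatment therefore cannot be told apart from chip on chips 1, 2 and 4, nor from odd or even position on chip 3, and each comparison is given over all arrays, within chip 3 and between chips 1 and 2 and chip 4.

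Actin is a globular protein that assembles into polar filaments, and the cytoplasmic forms are encoded by Actb and Actg1. In neurons the filaments give shape to dendritic spines, growth cones and the presynaptic terminal. The other members act at different steps of the cycle. Thymosins (Tmsb4x, Tmsb10) hold monomers back from assembly, profilins (Pfn1, Pfn2) exchange the nucleotide of the monomer and deliver it to growing ends, and cofilins (Cfl1, Cfl2) sever and disassemble old filaments. Capping protein, of which Capzb encodes the beta subunit, closes the growing end, and Actr3 encodes a subunit of the Arp2/3 complex, which starts branches. Actb mRNA is also widely used as a reference transcript in expression studies, so that agreement between its probes bears on such use.

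The 5 Actb probes are listed by the array annotation on a single transcript. They start at the bases 14, 1173, 1408, 1412 and 1610 of it and are named here by these starts. The annotation gives chromosome 5 for the probes at 14 and 1412 and no chromosome for those at 1173, 1408 and 1610. The first 30 of their 50 bases are shown because the probes of this gene gave different results. Capitals mark the 29 printed bases that the probes at 1408 and 1412 have in common.
Actb 14: tccacccgcgagcacagcttctttgcagct
Actb 1173: ccggcccctccatcgtgcaccgcaagtgct
Actb 1408: cGGTGAAGGCGACAGCAGTTGGTTGGAGCA
Actb 1412: GGTGAAGGCGACAGCAGTTGGTTGGAGCAa
Actb 1610: tcgcgtccatgccctgagtccaccccgggg
The probes at 1408 and 1412 share 49 of 50 bases, shifted by 1, and so read nearly the same stretch of the mRNA although the annotation lists them under separate starts. Among all probes of the table, 0 probes of another gene had a run of 20 or more bases in common with a member probe. Pseudogenes and other copies that have no probe on the array were not searched.

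For the thymosins, the first 30 bases of the Tmsb4x probe, on chromosome X, and of 2 of the 3 Tmsb10 probes, on chromosome 6, are shown because the probes of Tmsb10 also gave different results. The annotation calls the Tmsb10 probe at 9 specific to an isoform and that at 252 common to all isoforms.
Tmsb4x 383: gctgcccctttcacatcaaagaatcagaac
Tmsb10 9: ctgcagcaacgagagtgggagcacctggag
Tmsb10 252: tcatctccaagaccccctcgtgatgtggag
RefSeq (GRCm38.p6) lists 3 start sites for Tmsb10, and all 50 bases of the probe at 9 lie in the window around the most downstream of them, at chr6:72958342-72958391 on the minus strand, where they begin 159 bases before that start site. A transcript that begins at that start site does not hold the sequence of this probe by that annotation. The probe of Cfl2 at 11 matched RefSeq in the same way over 40 bases, at chr12:54862828-54862867 on the minus strand, from base 11 after the start site.

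Values are given on the log2 scale after a variance-stabilizing transform and quantile normalization, on which 1 unit is 2-fold in the signal of bright probes and more than that for dim ones, whose differences are compressed. Probes were called at a false discovery rate (FDR) below 1% by limma, adjusted over all 10187 probes. Over all arrays, 4 of the 20 tested member probes were called (20%), beside 8.19% of all tested probes. Both called higher in ethanol-treated mice were Actb probes (3.50% of all probes were called higher). Both called lower were thymosins, Tmsb4x and the Tmsb10 probe at 9 (4.68% of all probes were called lower). The median difference over the 20 probes was 0 and that over all 10187 was -0.0028. On chip 3, 0 of the 20 were called by limma, where 2.84% of all probes were. There, 4 of the 20 had an unadjusted p below 0.05, of which 1 was higher (Actb at 1173) and 3 were lower (Actb at 1610, Pfn1 at 624 and Tmsb10 at 252). Between chips 1 and 2 and chip 4 the same 4 probes were called, where 11.8% of all probes were. When chip entered the limma fit as a fixed term, so that chip 3 alone informed the difference, 0 members were called, beside 0.137% of all probes, and with chip as a random term 0 were called, beside 0.707%. The SD of a tested probe within a group had a median of 0.104.

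**Figure D1:**
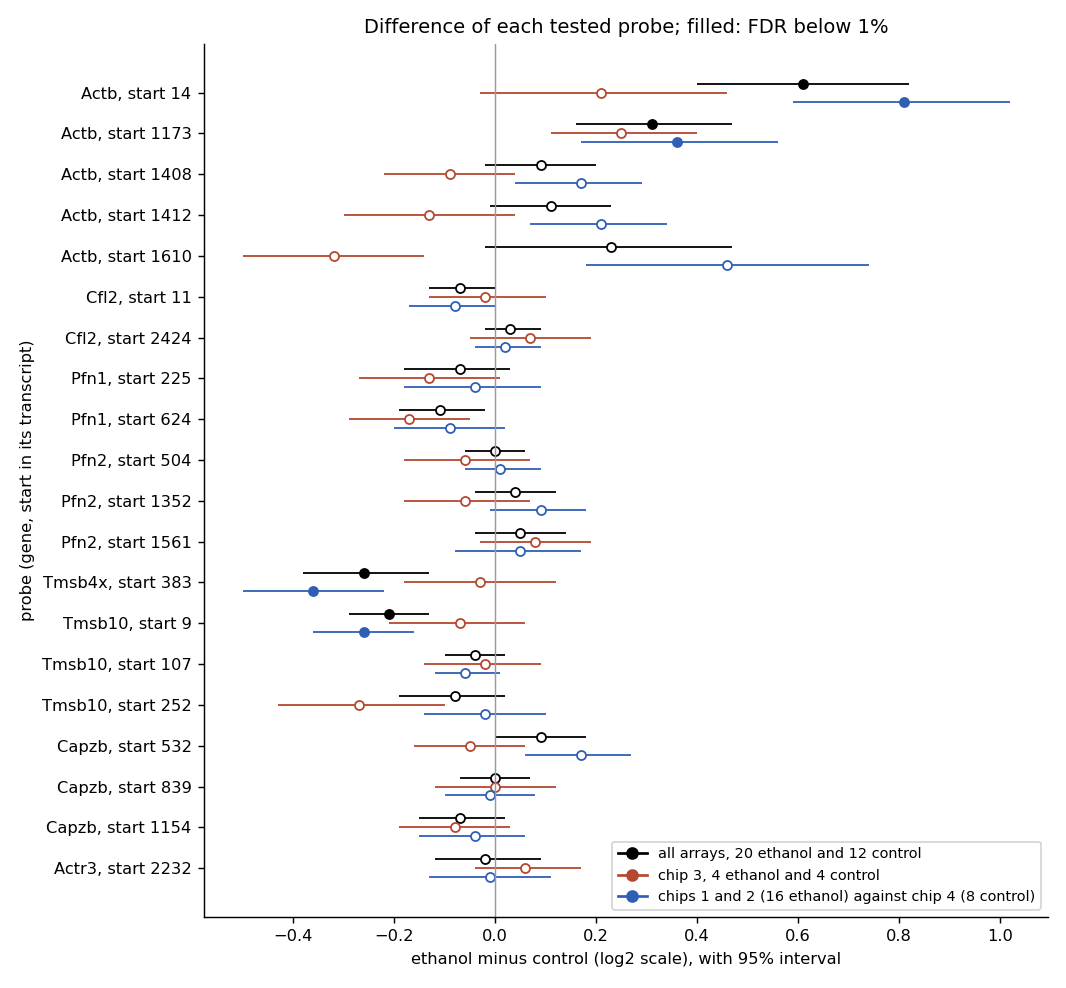
Difference between ethanol-treated mice and controls on the log2 scale (horizontal axis) for each of the 20 tested probes (vertical axis, gene and start of the probe), with 95% intervals from limma, over all 32 arrays (black), on chip 3 (red) and between chips 1 and 2 and chip 4 (blue). Filled points passed an FDR of 1%, and 4 black points, 0 red points and the 4 blue points of the same probes are filled.

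The Actb probe at 14, near the 5′ end of the transcript, showed the largest difference of the 20. Its values in the 20 ethanol-treated mice ran from 10.50 over a median of 10.95 to 11.23, and those in the 12 controls from 9.61 over 10.40 to 11. The control median was exceeded by 20 of 20 ethanol-treated mice and the highest control by 8 of them, while 1 control exceeded the ethanol median. The group means were 10.90 ± 0.22 (SD, n = 20) with ethanol and 10.29 ± 0.42 (SD, n = 12) without, an increase of 0.61 (SE 0.103, adjusted p = 0.00018 by limma), or 1.53-fold on this scale. In the deposited signal, before any normalization, the medians were 1980 and 1120.

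Within chip 3, which held both groups, the probe at 14 read 10.97, 11.02, 10.92 and 10.68 in the ethanol-treated mice A46, A47, A49 and A50 and 11, 10.86, 10.41 and 10.47 in the controls C52, C54, C55 and C56. The groups overlapped there, with C52 among the highest ethanol-treated mice, and the difference of 0.21 (95% interval -0.03 to 0.46) had an adjusted p of 0.25 by limma. Between chips 1 and 2 and chip 4 it was 0.81 (SE 0.104, adjusted p = 5e-06 by limma). The ethanol-treated mice of chip 3 differed from those of chips 1 and 2 by -0.01 (adjusted p = 0.99), whereas the controls of chip 3 exceeded the controls of chip 4 by 0.59 (adjusted p = 0.006 by limma, called, as 5.81% of all probes were). The difference on chip 3 was smaller than that between chips 1 and 2 and chip 4 by -0.59 (adjusted p = 0.05 by limma). On chips 1, 2 and 4, each of which held a single group, odd positions differed from even ones by -0.27 (adjusted p = 0.034), opposite in sign to the difference on chip 3, where ethanol-treated mice had the odd positions. With both chip and odd or even position in the fit, the increase was 0.48 (SE 0.170, adjusted p = 0.31 by limma).

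The Actb probe at 1173, which stands for Actb where a gene is taken by its brightest probe, was higher in ethanol-treated mice by a smaller amount. It ran from 11.97 over 12.36 to 12.92 in ethanol-treated mice and from 11.76 over 12.10 to 12.54 in controls. The control median was exceeded by 18 of 20 ethanol-treated mice and the highest control by 6. The means were 12.41 ± 0.23 (SD, n = 20) and 12.10 ± 0.23 (SD, n = 12), an increase of 0.31 (SE 0.077, adjusted p = 0.0043 by limma), or 1.24-fold. On chip 3 it read 12.57, 12.52, 12.55 and 12.32 in A46, A47, A49 and A50 and 12.24, 12.40, 12.15 and 12.16 in C52, C54, C55 and C56. Of the ethanol-treated mice on chip 3, A50 alone lay below a control, C54. The difference there was 0.25 (SE 0.068, adjusted p = 0.031 by limma), which did not pass the threshold, and that between chips 1 and 2 and chip 4 was 0.36 (adjusted p = 0.0066). With arrays scaled to a common median instead of quantiles, the increase over all arrays was 0.25 (adjusted p = 0.13 by limma). The values on and between chips differed from each other by -0.11 (adjusted p = 0.73). On the other chips, odd positions exceeded even ones by 0.19 (adjusted p = 0.12), a difference of the same sign as that on chip 3, and with both chip and position in the fit the increase was 0.06 (SE 0.155, adjusted p = 0.94).

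The 3 Actb probes nearest the 3′ end, at 1408, 1412 and 1610, were not called over all arrays. The probe at 1408 ran from 8.39 over 8.54 to 8.66 in ethanol-treated mice and from 8.17 over 8.42 to 8.96 in controls, with a difference of 0.09 (95% interval -0.02 to 0.20, adjusted p = 0.25 by limma). The probe at 1412 ran from 8.43 over 8.54 to 8.89 and from 8.16 over 8.50 to 8.87, with a difference of 0.11 (95% interval -0.01 to 0.23, adjusted p = 0.21). In both, the control range enclosed nearly all of the ethanol range. Even so, 19 of 20 ethanol-treated mice exceeded the control median at 1408 and 15 of 20 at 1412. The probe at 1610 ran from 10.75 over 11.07 to 11.33 in ethanol-treated mice and from 10.08 over 10.90 to 11.79 in controls. It exceeded the control median in 18 of 20 ethanol-treated mice. Its difference was 0.23 (95% interval -0.02 to 0.47, adjusted p = 0.20), and its SD in controls (0.56, n = 12) was larger than in ethanol-treated mice (0.16, n = 20).

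These 3 probes had differences of opposite sign on and between chips. On chip 3 the probe at 1610 read 10.99, 10.92, 10.77 and 10.96 in the ethanol-treated mice A46, A47, A49 and A50 and 10.97, 11.44, 11.27 and 11.23 in the controls C52, C54, C55 and C56. C52 alone among the controls lay within the range of the ethanol-treated mice. The difference on chip 3 was -0.32 (SE 0.083, adjusted p = 0.026 by limma), against 0.46 (adjusted p = 0.015) between chips 1 and 2 and chip 4. The test of these differences against each other gave -0.78 (adjusted p = 0.037 by limma). By that test 0 of the 20 member probes passed an FDR of 1%, beside 2.91% of all probes, and the probe at 1610 had the lowest adjusted p among the members. On the other chips, odd positions of this probe differed from even ones by -0.23 (adjusted p = 0.22), the same sign as on chip 3, and with both chip and position in the fit its difference was -0.09 (SE 0.226, adjusted p = 0.94). For the probes at 1408 and 1412 the difference was -0.09 and -0.13 on chip 3 (adjusted p = 0.35 and 0.32) and 0.17 and 0.21 between chips (adjusted p = 0.054 and 0.024). Controls of chip 3 exceeded those of chip 4 by 0.59 at 1610 (adjusted p = 0.024) and by 0.20 and 0.24 at 1408 and 1412 (adjusted p = 0.11 and 0.085).

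**Figure D2:**
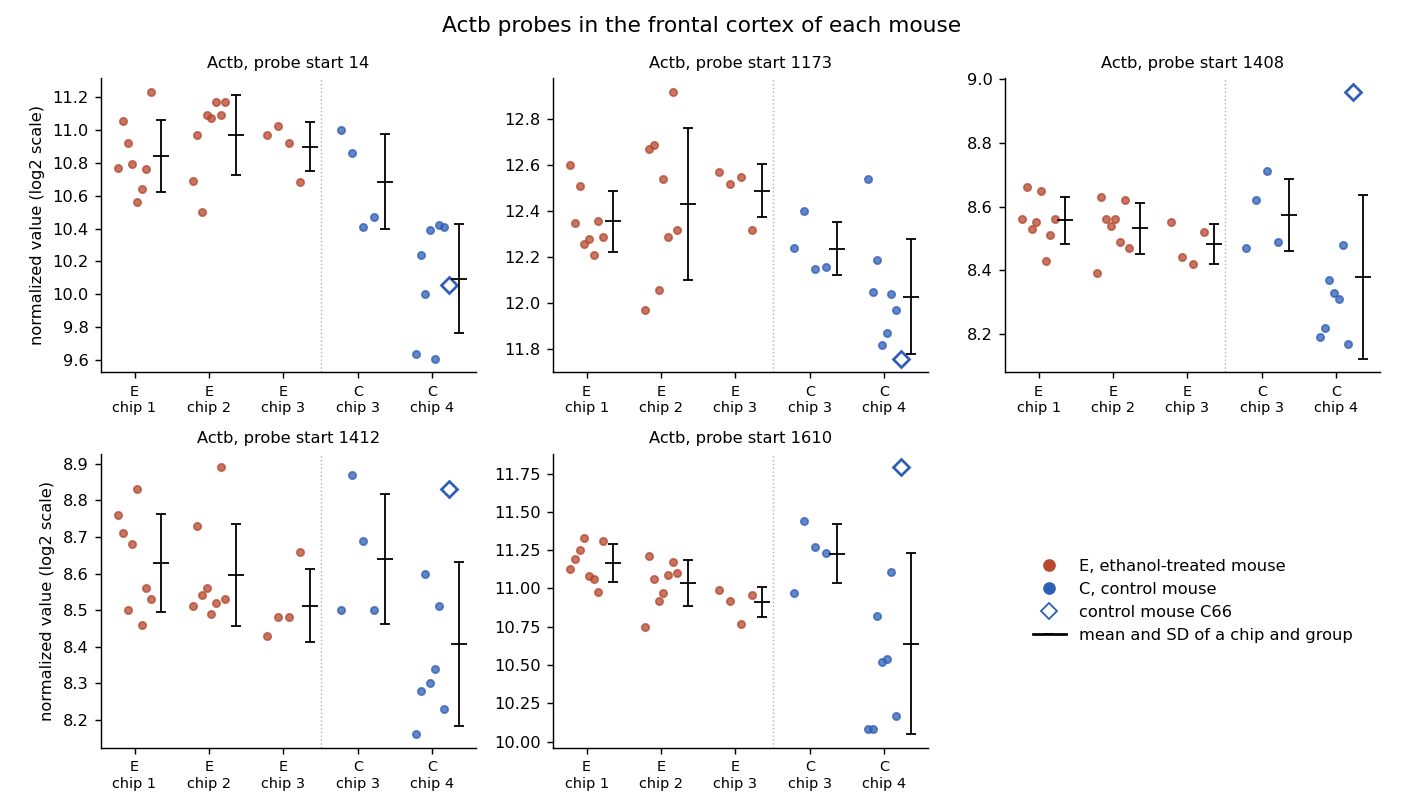
Normalized value on the log2 scale (vertical axes, a separate range for each panel) of the 5 Actb probes in each of 20 ethanol-treated mice (E, red) and 12 controls (C, blue), by chip. Bars give the mean and SD of each chip and group, and the open diamond is control mouse C66, which is the lowest of all controls at 1173 (11.76) and the highest at 1408 (8.96) and 1610 (11.79).

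Control mouse C66, on chip 4, stood apart from the other arrays. It had the fewest detected probes (9480, with 10637 on the next array) and the lowest median signal (146, with 157 on the next). In the Actb probes at 1408, 1412 and 1610 it read 8.96, 8.83 and 11.79, above all other controls of chip 4, whereas at 14 it read 10.06, within their range. Without it the increase at 14 was 0.59 (adjusted p = 0.00058 by limma), and that at 1173 was 0.28 and was no longer called (adjusted p = 0.012). The differences at 1408, 1412 and 1610 were 0.13, 0.14 and 0.31 (adjusted p = 0.032, 0.10 and 0.05). Without C66, 1 member probe was called higher and 1 lower, beside 2.25% and 3.27% of all probes, and the part of RNA quality in these differences was not tested.

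Because the probes of a gene are read on the same array, the difference between them takes out what shifts both probes alike. It does not take out an effect of chip that differs between probes. For the 10 pairs of Actb probes the difference within each array was compared between groups by a two-sided permutation test, adjusted over the 10 pairs. Labels were permuted over all arrays without regard to chip, and C66 was kept. Treatment and chip therefore cannot be told apart by this test over all arrays. In 3 pairs it differed at an adjusted p below 0.05, and each of these involved the probe at 14. With normexp background correction 0 of these 3 passed (permutation, adjusted p between 0.054 and 0.25), and the differences of the dim probes at 1408 and 1412 between groups were then 0.39 and 0.41 (adjusted p = 0.10 and 0.12 by limma). The excess of the probe at 14 over that at 1408 was larger in ethanol-treated mice by 0.52 (2.37 ± 0.22 against 1.85 ± 0.42, SD, permutation, adjusted p = 0.0005). Over the probe at 1412 it was larger by 0.50 (permutation, adjusted p = 0.0011) and over that at 1610 by 0.38 (permutation, adjusted p = 0.032). Against the probe at 1173 the difference was 0.29 (permutation, adjusted p = 0.059). The 2 overlapping probes, at 1408 and 1412, differed by -0.02 (permutation, adjusted p = 0.59). Within chip 3 the corresponding values for the 3 pairs were 0.31, 0.34 and 0.53 (exact permutation, adjusted p between 0.143 and 0.286). Between chips 1 and 2 and chip 4 they were 0.64, 0.60 and 0.35. With 4 mice per group the smallest exact p is 0.0286. On chip 3 it was reached by the probe at 1173 against that at 1408 (0.35) and at 1610 (0.57). The probe at 1408 against 1610 (0.23) reached it too, each with an adjusted p of 0.0953. Over all arrays these pairs differed by 0.23, 0.09 and -0.14 (permutation, adjusted p = 0.059, 0.59 and 0.18). Between chips 1 and 2 and chip 4 they differed by 0.20, -0.10 and -0.29.

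After the mean of each chip and group was taken off, the 3 probes nearest the 3′ end varied together over the 32 arrays. Pearson's r was 0.89 for 1408 and 1610, 0.79 for 1408 and 1412 and 0.73 for 1412 and 1610, and 0.74, 0.74 and 0.59 without C66. The probe at 1173 did not share this variation with any of them, and its largest correlations in size were negative, -0.56 with the Tmsb10 probe at 9, -0.50 with the Pfn1 probe at 225 and -0.45 with that at 624. The probe at 14 had its highest with the Pfn1 probe at 225, at 0.50. The probes of Pfn1 correlated with each other at 0.65 and the Tmsb10 probes at 9 and 252 at 0.56. These are descriptions over arrays that share a chip, a hybridization and a normalization. The 5 genes most like the Actb probe at 1173 by this measure, each by its brightest probe over 32 arrays, were Zdhhc21 (r = 0.84), Syt1 and Mef2c (0.83) and Alcam and LOC100048721 (0.82). Of these, Alcam was called between groups, at 0.26 (limma, adjusted p = 0.0077), whereas the remaining genes had differences between 0.12 and 0.25 with an adjusted p of 0.053 or more.

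**Figure D3:**
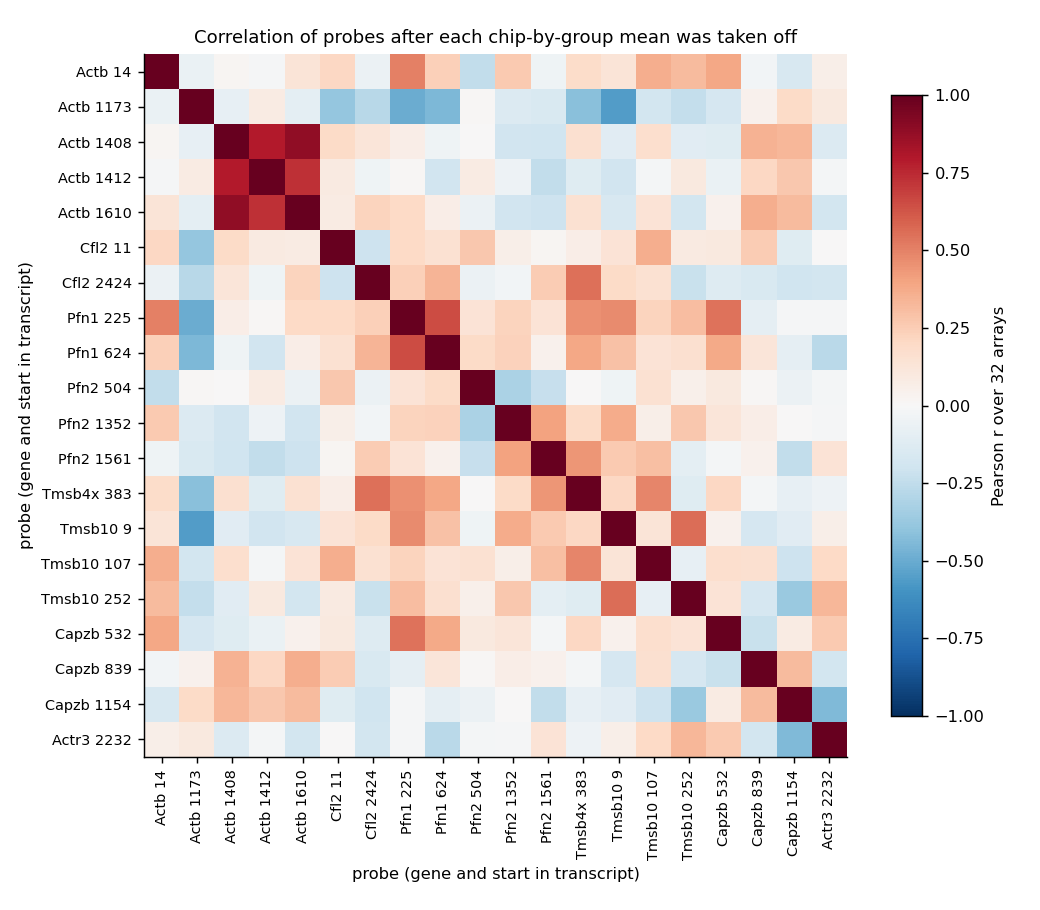
Pearson correlation (colour, from -1 to 1) between each pair of the 20 tested probes (both axes, gene and start of the probe) over 32 arrays, after the mean of each chip and group was taken off. The block of the Actb probes at 1408, 1412 and 1610 holds r between 0.73 and 0.89, and the row of the Actb probe at 1173 is mostly blue, down to -0.56.

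Of the 4 tested thymosin probes, 2 were lower in ethanol-treated mice over all arrays, and 0 were called on chip 3 or with chip in the fit by limma. The Tmsb4x probe ran from 13.06 over 13.30 to 13.59 in ethanol-treated mice and from 13.22 over 13.51 to 14.00 in controls. The control median was exceeded by 2 of 20 ethanol-treated mice, and 7 lay below every control. The mean was 13.30 ± 0.13 (SD, n = 20) against 13.55 ± 0.24 (SD, n = 12), a difference of -0.26 (SE 0.062, adjusted p = 0.0038 by limma), or 1.20-fold lower. On chip 3 the ethanol-treated mice A46, A47, A49 and A50 read 13.46, 13.32, 13.33 and 13.16 and the controls C52, C54, C55 and C56 read 13.22, 13.30, 13.38 and 13.50. The groups overlapped throughout, with a difference of -0.03 (95% interval -0.18 to 0.12, adjusted p = 0.81), against -0.36 (adjusted p = 0.00037) between chips 1 and 2 and chip 4. The highest value was that of C66, and without this mouse the difference was -0.22 and was no longer called (adjusted p = 0.010 by limma). Controls of chip 3 differed from those of chip 4 by -0.30 (adjusted p = 0.026). With both chip and odd or even position in the fit, the difference turned to 0.09 for Tmsb4x (adjusted p = 0.87) and to 0.02 for the Tmsb10 probe at 9 (adjusted p = 0.96).

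The isoform-specific Tmsb10 probe at 9 ran from 12.28 over 12.55 to 12.81 in ethanol-treated mice and from 12.57 over 12.76 to 12.92 in controls. The control median was exceeded by 1 of 20 ethanol-treated mice, 11 lay below every control, and 12 of 12 controls exceeded the ethanol median. The means were 12.56 ± 0.12 (SD, n = 20) and 12.77 ± 0.10 (SD, n = 12), a difference of -0.21 (SE 0.040, adjusted p = 0.00062 by limma), or 1.15-fold lower, and without C66 it was -0.21 as well (adjusted p = 0.0013). On chip 3 it read 12.70, 12.68, 12.54 and 12.56 in the ethanol-treated mice and 12.70, 12.57, 12.83 and 12.66 in the controls, in the order named above. The groups again overlapped, and the difference was -0.07 (95% interval -0.21 to 0.06, adjusted p = 0.51), against -0.26 (adjusted p = 0.00024) between chips 1 and 2 and chip 4.

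The Tmsb10 probe common to all isoforms, at 252, had the reverse layout. Over all arrays its difference was -0.08 (95% interval -0.19 to 0.02, adjusted p = 0.26 by limma), and between chips 1 and 2 and chip 4 it was -0.02 (adjusted p = 0.84). On chip 3 the ethanol-treated mice A46, A47, A49 and A50 read 10.78, 10.78, 10.72 and 10.82 and the controls C52, C54, C55 and C56 read 11.19, 10.96, 11.20 and 10.80. The ethanol-treated mice lay close together below 3 of the 4 controls, with a difference of -0.27 (SE 0.077, adjusted p = 0.041). That difference did not pass the threshold, and it did without C56 (-0.35, adjusted p = 0.0068). The third Tmsb10 probe, at 107, was dim, being detected on 26 of 32 arrays, and differed by -0.04 (adjusted p = 0.34).

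**Figure D4:**
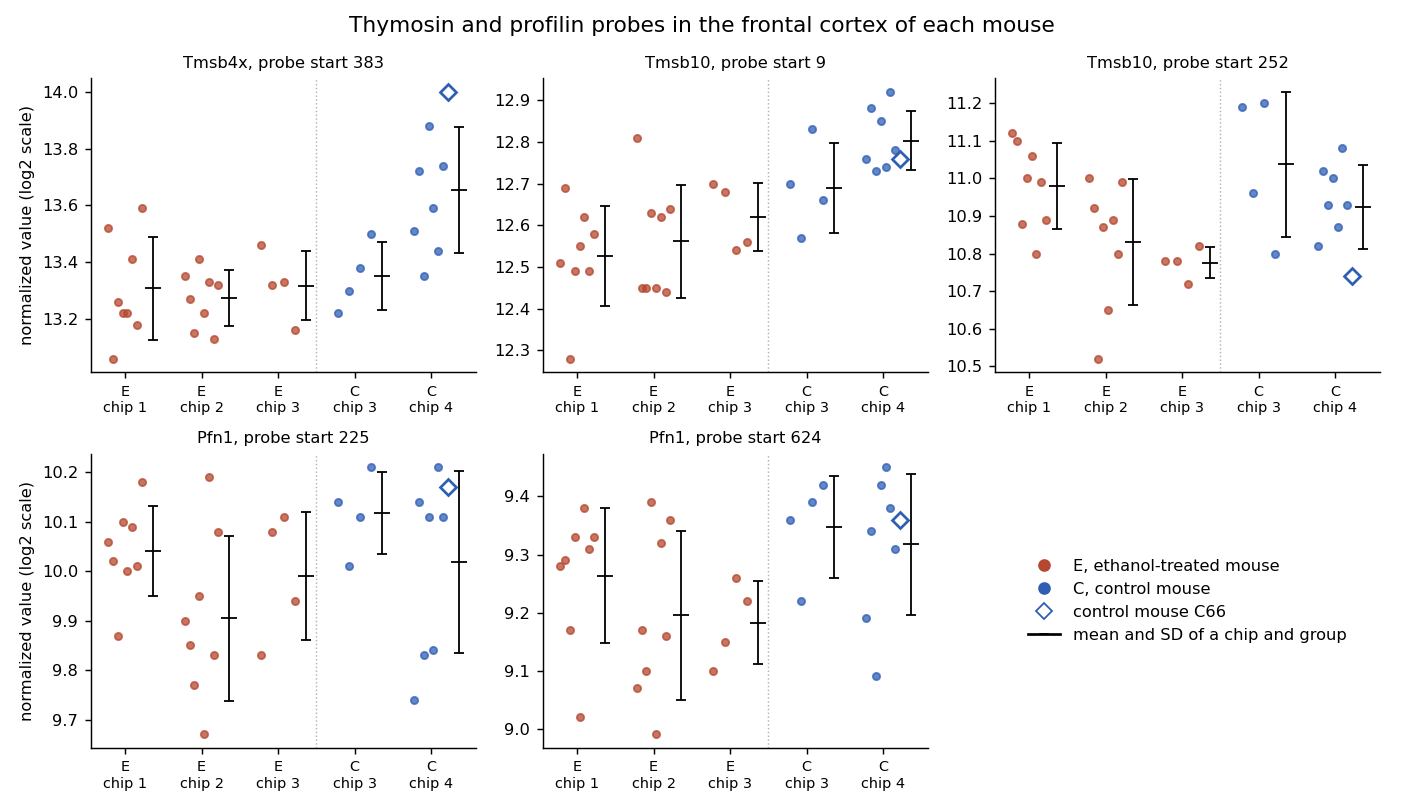
Normalized value on the log2 scale (vertical axes, a separate range for each panel) of Tmsb4x, 2 Tmsb10 probes and 2 Pfn1 probes in each ethanol-treated mouse (E, red) and control (C, blue), by chip, with the mean and SD of each chip and group and control mouse C66 as an open diamond. The controls of chip 4 lie highest for Tmsb4x (mean 13.65) and for the Tmsb10 probe at 9 (mean 12.80), while those of chip 3 (13.35 and 12.69) lie nearer to the ethanol-treated mice.

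Of the 5 profilin probes 0 were called over all arrays by limma. For Pfn1, on chromosome 11, the probe at 624 was lower by -0.11 (95% interval -0.19 to -0.02, adjusted p = 0.063 by limma) and that at 225 by -0.07 (95% interval -0.18 to 0.03, adjusted p = 0.34). On chip 3 the probe at 624 read 9.10, 9.15, 9.26 and 9.22 in A46, A47, A49 and A50 and 9.36, 9.22, 9.39 and 9.42 in C52, C54, C55 and C56, a difference of -0.17 (adjusted p = 0.074), with C54 alone among the controls within the ethanol range. Both Pfn1 probes differed between odd and even positions, which also separate the lower from the higher mouse numbers of a chip. On chips 1, 2 and 4 odd positions were lower than even ones by -0.21 at 225 and -0.16 at 624 (adjusted p = 0.0036 and 0.0094 by limma), so that 2 of the 20 member probes were called between positions, where 3.86% of all probes were. Ethanol-treated mice had the odd positions of chip 3, and these values have the same sign as the differences there.

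Pfn2, the profilin isoform enriched in brain, on chromosome 3, had 3 probes, of which 0 were called over all arrays by limma. Its probe at 1352 ran from 12.58 over 12.74 to 12.98 in ethanol-treated mice and from 12.61 over 12.76 to 12.89 in controls, with a difference of 0.04 (95% interval -0.04 to 0.12, adjusted p = 0.50). The probes at 1561 and 504 differed by 0.05 (95% interval -0.04 to 0.14) and 0 (95% interval -0.06 to 0.06). For Cfl2, the cofilin isoform best known from muscle, on chromosome 12, the probe at 11 differed by -0.07 (95% interval -0.13 to 0) and that at 2424 by 0.03 (95% interval -0.02 to 0.09), with an adjusted p of 0.16 and 0.39 by limma. Both Cfl2 probes were dim, with median signals of 273 and 212 in ethanol-treated mice, and that at 2424 was detected on 24 arrays. The probe of Cfl1, the cofilin of most non-muscle cells, on chromosome 19, had signals between 139 and 201 and was not well above background on any array, so that the level of Cfl1 mRNA was not measured by it.

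Capzb, on chromosome 4, had 3 probes. That at 532 ran from 10.76 over 10.94 to 11.21 in ethanol-treated mice and from 10.54 over 10.84 to 11.05 in controls, with a difference of 0.09 (95% interval 0 to 0.18, adjusted p = 0.16 by limma). On chip 3 it differed by -0.05 (adjusted p = 0.57), and between chips 1 and 2 and chip 4 by 0.17 (adjusted p = 0.017), while controls of chip 3 exceeded those of chip 4 by 0.23 (adjusted p = 0.016). The probes at 839 (specific to an isoform) and 1154 (all isoforms) differed by 0 and -0.07 (adjusted p = 0.96 and 0.27). Actr3, on chromosome 1, ran from 10.91 over 11.23 to 11.49 in ethanol-treated mice and from 11.08 over 11.27 to 11.41 in controls. Its difference was -0.02 (95% interval -0.12 to 0.09, adjusted p = 0.86) over all arrays and 0.06 (adjusted p = 0.47) on chip 3. Over the 13 probes of genes other than Actb that were not called, differences lay between -0.11 and 0.09.

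Before the start sites that RefSeq (GRCm38.p6) gives, 4 motifs were searched on both strands, over windows of the 250 bases up to the start. Bases after the start were not searched. The CArG box, the element bound by serum response factor, which controls actin genes in many cells, was found in the window of Actg1, at -90, and in 0 windows of the other members listed there, beside 1.47% of 32851 promoters. TATAAA was found in 0 of their windows (12.4% of promoters) and TATATAA in 1 of the 3 Tmsb10 windows, at -199 (3.04% of promoters), in the window that holds the Tmsb10 probe at 9. GGGCGG was found in the windows of every listed member except Cfl1, 6 times each in those of Actg1 and Cfl2 (32.7% of promoters hold it). Actb is named only, without a window.

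The other genes of the actin cycle were taken from lists of regulators, each gene by its brightest tested probe. Of 157 listed genes that are no members, 84 were tested, and 5 were higher and 6 lower in ethanol-treated mice at an FDR below 1% by limma (13.1%), beside 2.93% higher and 5.07% lower of all 7926 genes tested. Their median difference was 0.011 and that over all genes was -0.00601. Without control C66 the counts were 4 higher and 5 lower, beside 1.84% and 3.46% of all genes, since Myo6 and Mylc2b, described next, were no longer called (adjusted p = 0.016 and 0.011). On chip 3 alone 1 of the 84 was called higher and 6 lower, beside 1.48% and 1.55% of all genes, and with chip as a fixed term 0 were called by limma, beside 0.164%. When arrays were scaled to their medians, 1 was called higher and 4 lower, beside 0.341% and 1.85%. The gene called higher with this scaling was Tpm3 (0.20, adjusted p = 0.0083 by limma).

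Among proteins that cap filaments, 2 of 10 genes rose. Add3, an adducin that ties filament ends to spectrin, rose by 0.26 (adjusted p = 0.00019). It was the list gene called higher on chip 3 as well, at 0.31 (adjusted p = 0.0029). With both chip and odd or even position in the fit its increase was 0.19 (adjusted p = 0.47 by limma). With median scaling it was 0.22 and was not called (adjusted p = 0.034). Tmod1, which caps pointed ends, rose by 0.19 (adjusted p = 0.0017). Tropomyosin Tpm3 rose by 0.20 (adjusted p = 0.00052), Actr1a, the actin-related protein of dynactin, by 0.18 (adjusted p = 0.00067) and Myo6, a myosin that moves to the pointed end, by 0.13 (adjusted p = 0.0063). On chip 3 these 4 differed by 0.05, 0.05, 0.13 and 0.11, with an adjusted p of 0.19 or more.

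Of the bundling and cross-linking proteins 2 of 14 fell, Fscn1 (fascin) by 0.32 (adjusted p = 0.00019) and Spnb3, a beta spectrin, by 0.24 (adjusted p = 0.0033). Of the severing and disassembly list 2 of 13 fell, Coro2b, a coronin, by 0.31 (adjusted p = 0.00023) and Limk1, the kinase that inactivates cofilin, by 0.19 (adjusted p = 0.0054). Mylc2b, a myosin light chain, fell by 0.26 (adjusted p = 0.0040) and Arpc5l, an Arp2/3 subunit, by 0.15 (adjusted p = 0.0036), the latter as 1 of 8 tested genes of that complex. On chip 3 Fscn1, Spnb3 and Coro2b differed by -0.36, -0.31 and -0.40 (adjusted p = 0.015, 0.0078 and 0.0064), Limk1 and Arpc5l by -0.24 and -0.13 (adjusted p = 0.11 and 0.12) and Mylc2b by 0.05 (adjusted p = 0.68). The other 4 genes called lower on chip 3, named here after their values were seen, were Spnb2, a beta spectrin, by -0.48 (adjusted p = 0.00087), Myh10, a non-muscle myosin, by -0.48 (adjusted p = 0.0024), Actr1b by -0.34 (adjusted p = 0.0021) and Arpc1a by -0.28 (adjusted p = 0.0038). Over all arrays these differed by 0.02, -0.13, -0.01 and -0.10, with an adjusted p of 0.21 or more. With both chip and odd or even position in the fit they differed by -0.26, -0.23, -0.10 and -0.07 (adjusted p between 0.53 and 0.87 by limma). In that fit Fscn1, Spnb3 and Coro2b differed by -0.28, -0.16 and -0.33 (adjusted p = 0.42, 0.72 and 0.33). Over all arrays and on chip 3, the formin list (6 tested) and the activators of Arp2/3 (10 tested) held 0 called genes. So did the list of serum response factor, its cofactors and targets (Srf, Elk3, Vcl, Ctgf and Fhl2 tested, Mkl1 and Mkl2 below the detection filter). Between chips 1 and 2 and chip 4, where 11.8% of all probes were called, Srf differed by -0.28 (adjusted p = 0.00024 by limma). On chip 3 Srf differed by 0.23 (adjusted p = 0.045). The Arp2/3 activators Abi2 and Nckap1 differed between these chips by 0.19 and 0.26 (adjusted p = 0.002 and 0.0044), and on chip 3 by -0.01 and -0.06. Of the actin isoforms other than the members, the smooth muscle gene Acta2 differed by -0.02 over all arrays (adjusted p = 0.88), by 0.30 on chip 3 (adjusted p = 0.036) and by -0.14 between chips 1 and 2 and chip 4 (adjusted p = 0.20). The skeletal muscle gene Acta1 differed by 0.04, 0.01 and 0.03 (adjusted p = 0.53, 0.93 and 0.67).

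**Figure D5:**
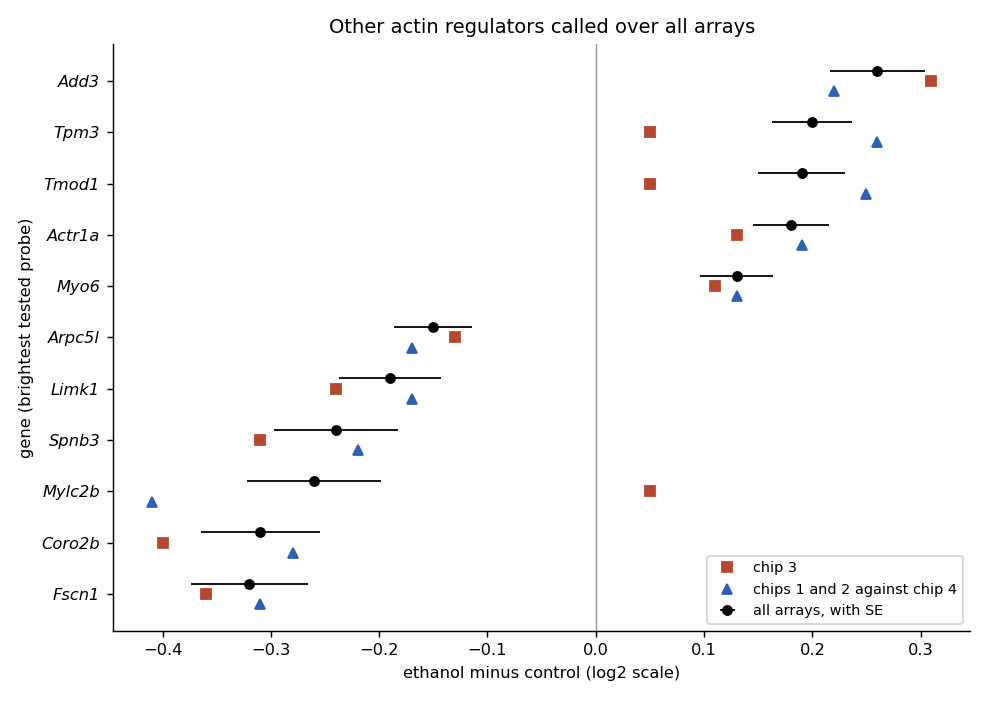
Difference between ethanol-treated mice and controls on the log2 scale (horizontal axis) for the 11 genes of the regulator lists called over all arrays (vertical axis, brightest probe), over all arrays with SE (black), on chip 3 (red) and between chips 1 and 2 and chip 4 (blue). Points of chip 3 lie near 0 for Tpm3 (0.05) and above 0 for Mylc2b (0.05), and beyond the black point for Add3 (0.31) and Coro2b (-0.40).

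In whole tissue, fewer cells of a type and less RNA per cell cannot be told apart, so markers of cell types and regions are given beside these differences. Neuronal markers were measured, with 7 of 10 tested (Syt1, Stmn2, Nefm, Eno2, Camk2a, Gad1 and Slc17a7), a summed level of 45100 to 50700 in ethanol-treated mice and 42500 to 52300 in controls, and a mean difference of 0.02. Markers of oligodendrocytes (11 of 11 tested) differed by -0.04 over all arrays, 0.06 between chips 1 and 2 and chip 4 and -0.29 on chip 3, with a summed level of 26300 to 53800 and 24500 to 45400. Those of the olfactory bulb (6 of 10 tested, with Eomes, Tbx21 and Slc6a3 below the detection filter) differed by 0.15, 0.03 and 0.46, with a summed level of 2060 to 8550 and 2010 to 6020. On chips 1, 2 and 4, odd positions differed from even ones by -0.09 for oligodendrocyte markers and 0.29 for those of the olfactory bulb. Both have the sign of the difference on chip 3, where ethanol-treated mice had the odd positions. Markers of astrocytes, microglia, endothelial cells, vascular smooth muscle and pericytes, blood and striatum had mean differences between -0.04 and 0.07 over all arrays and between -0.13 and 0.15 on chip 3. Of single markers, 1 of neurons was called lower over all arrays, where 5.07% of all genes were. Called higher were 1 of astrocytes and 1 of vascular smooth muscle and pericytes, where 2.93% of all genes were. The part of these markers in the differences of the members on chip 3 was not tested.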

How the data were processed

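Frontal cortex RNA of 32 mice was hybridized to 4 Illumina MouseRef-8 v2.0 chips. The deposited table was not normalized. Per the file headers it holds for each probe and array the mean bead intensity, its detection p-value, how many beads were read and the standard error between them, made by the authors from the scanner output with software not given in the sources used here. The submitters' processing notes name lumi and limma. From these columns the variance-stabilizing transform of lumi was rebuilt in R 4.3.3, scaled so that 1 unit is 1 log2 unit at high intensity, and followed by quantile normalization. Probes detected on 24 or more arrays (detection p-value under 0.01) were tested with limma 3.58.1 (no covariates, Benjamini-Hochberg over all tested probes) and called at an FDR below 1%. The transform, the limma fit and the permutation test were tested on simulated data. Differences between Actb probes were tested with 100000 permutations, or exactly on chip 3. The number of arrays limits the precision.

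The members and gene lists were chosen with earlier results of these data known. Named were all members, the 10 non-member list genes with the largest change in each direction among those called, and the 5 genes most like the brightest Actb probe. In the lists a gene was taken by its brightest tested probe. A further list of regulators is not reported here. The probe coordinates in the table have no stated genome build and were not used. Promoter windows are from RefSeq (GRCm38.p6). Alternatives were log2 values, median scaling, normexp background correction (offset 16), all probes, probes detected on all arrays, chip and position terms, array weights, subsets of chips, leaving out C66 or single arrays of chip 3, and a rule of an FDR below 10% with at least 1.1-fold.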

Additional observations from a re-analysis of the deposited data

Results flagged for a closer look

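In 100 groups of 4 or 8 arrays (each tested probe in each chip and group), 2 had a sample far from the rest by Dixon's criterion, of which chance gives about 1 in 20. The Actb probe at 1408 was 8.96 in control mouse C66, where the other 7 controls of chip 4 ran from 8.17 to 8.48. The Capzb probe at 1154 was 10.24 in ethanol-treated mouse A46, where the other 3 ethanol-treated mice of chip 3 ran from 10.26 to 10.27, a gap smaller than the SD of this probe in any other chip and group.

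The Actb probe at 1610 had a difference on chip 3 that was lower by -0.78 than that between chips 1 and 2 and chip 4 (adjusted p = 0.037 by limma), -0.32 against 0.46. On chip 3 treatment coincides with odd or even position and elsewhere with chip. Odd minus even positions of the other chips differed by -0.23 (adjusted p = 0.22), and with chip and position in the fit the difference was -0.09 (adjusted p = 0.94 by limma).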

How the results depend on the processing

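Of 2 member probes called higher, 1 remained with median scaling (the Actb probe at 14), 1 with all 25697 probes tested, where the adjustment covers more probes, and 1 without control C66. Of 2 called lower, 1 remained with all probes and 1 without C66 (the Tmsb10 probe at 9 in both), and 2 with median scaling. With chip as a fixed term, as a random term, as a fixed term with odd or even position, and on chip 3 alone, 0 were called higher and 0 lower by limma. With these chip settings the increase of the Actb probe at 14 lay between 0.21 and 0.52, with an adjusted p between 0.011 and 0.51. The difference reversed to 0.09 for Tmsb4x and to 0.02 for the Tmsb10 probe at 9 with chip and position together, where the cause was not tested. Log2 values, normexp correction, probes detected on all arrays, position alone, array weights, chips 1 and 2 against chip 4 and the wider rule each called 2 higher and 2 lower.

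When each array of chip 3 was left out in turn, 0 to 1 member probes were called higher (the Actb probe at 1173 without A50, adjusted p = 0.0095 by limma) and 0 to 1 lower (the Actb probe at 1610 without C52, adjusted p = 0.0029, and the Tmsb10 probe at 252 without C56, adjusted p = 0.0068). Of 50 recomputed differences between Actb probes, 7 lost an adjusted p below 0.05 by permutation, all in the 3 pairs that had it over all arrays. A further 3 gained it with the same sign. The remaining 40 were counted as unchanged, among them changes of sign in pairs that were not below 0.05 over all arrays. No paired analysis was possible because the mouse numbers of the groups are not shared. Dim probes are compressed by the transform, and with normexp correction the difference was -0.21 for the Cfl2 probe at 11, against -0.07.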
